A study of Arabidopsis thaliana with 6 samples.

Results

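The genes described here are 37 loci of the Arabidopsis circadian clock and of light signalling, out of 29920 loci on the array. They were listed by locus code, with earlier results of these data known. They are LHY and CCA1, PRR, evening complex, RVE, LNK, ZTL family, PIF, photoreceptor, HY5 and COP1 genes, with GI, CHE, GRP7 and GRP8. Not every gene of these families is among them, and all 37 had a value. They took up 40 of the 30237 rows of the expression table, because GRP8 has 4 rows and each of the others has 1. GRP8 is represented by its brightest row.

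The plant clock is a loop of repressors and activators that are made at different times of day. The MYB factors LHY and CCA1 are made around dawn and repress evening genes, the PRR proteins follow one another through the day and repress LHY and CCA1, and the evening complex of ELF3, ELF4 and LUX represses day genes after dusk. Photoreceptors set this loop to the light cycle and, through PIF factors, COP1 and HY5, also act on leaf and stem growth. Because most of these transcripts cycle, the time of harvest bears on their level, and the sources used here do not say at what time of day seedlings were collected.

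The arrays were made from leaf 3 of Col-0 seedlings aged 9 DAS, grown in 16 h light and 8 h dark at 22 °C and placed on 5 µM dexamethasone for 4 h. The overexpressing line was ERF6:IOE, a strong inducible overexpressor of the transcription factor ERF6, with 3 arrays, and the control line was GFP:IOE, also with 3 arrays. Both lines carried an inducible transgene and both received dexamethasone, so neither an uninduced nor a wild-type state was measured, and 1 line stood for each construct. The samples came from several plates and from experiments the submitters call independent, and the labels number the arrays of each line as biological repeats 1 to 3, without saying whether a number marks a shared experiment. Where no label ties same-numbered arrays to one experiment, a p-value for the repeats measures only what arrays of one number share.

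Values are log2 expression, so a difference of 1 is a doubling. ERF6 (AT4G17490) was at 9.99, 9.97 and 10.42 in ERF6:IOE, against 6.89, 7.38 and 7.55 in GFP:IOE. Its difference between the lines was 2.85 on the log2 scale (SE 0.20, limma adjusted p 0.00107). Array medians lay between 4.85 and 4.90 and lower quartiles between 4.03 and 4.08. All 8 photosynthesis genes used to check the leaf label lay above the upper quartile of every array (6.36 to 6.43), and 6 of 7 root markers and all 4 shoot meristem markers had mean levels below 4.90, the highest array median, in both lines. The root marker that did not was PYK10, at 9.58 in ERF6:IOE and 9.46 in GFP:IOE. None of these 19 markers passed the test between the lines or between the repeats.

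No clock or light signalling gene passed the test between the lines. With limma and Benjamini-Hochberg adjustment over all rows, 0 of 37 members reached an adjusted p under 0.05, where 0.724% of all rows did (0.489% with the repeat number as a block), and the smallest adjusted p of a member was 0.297. At an unadjusted p under 0.05 there were 2 members, RVE8 and LNK3, against 8.02% of rows. Both were higher in ERF6:IOE, where 4.8% of rows were, and 0 were lower, where 3.22% of rows were. With the repeat number as a block, 0 members passed and 4 (LHY, RVE8, LNK3 and GRP7) had an unadjusted p under 0.05, against 9.95% of rows. The lines did not overlap for 5 members (13.5%), against 13.5% of rows. Of these RVE8, LNK2, LNK3 and PHYA were higher in ERF6:IOE (6.93% of rows) and PHYB was lower (6.52% of rows). Set against the GFP:IOE array of the same number, ERF6:IOE was higher in all 3 repeats for 9 members (24.3%). It was lower in all 3 for 10 (27.0%), so 19 of 37 kept one sign, against 32.4% of rows. In all, 18 members had a difference above 0, against 46.2% of rows. In the fit without the block, the 95% interval lay within 0.5 on either side of 0 for 23 members and within 1 for 36. The share of all rows with such intervals was not counted, so these counts show nothing particular to the members. LHY was the 1 member whose interval reached past 1 in that fit. Each SE and interval given for a gene between the lines is from that fit. With the block the SE was 0.12 for LHY (0.24 without it), 0.13 for PRR5 (0.36) and 0.106 for ELF3 (0.102). The median SE over all rows was 0.11 with the block and 0.13 without it. In simulated data of this size the test called none of the genes given a change somewhat larger than that of any member, so a count of 0 does not show that the members were alike in the 2 lines. In RNA from a whole leaf, fewer cells that make a transcript and less of it per cell cannot be told apart.

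**Figure D1:**
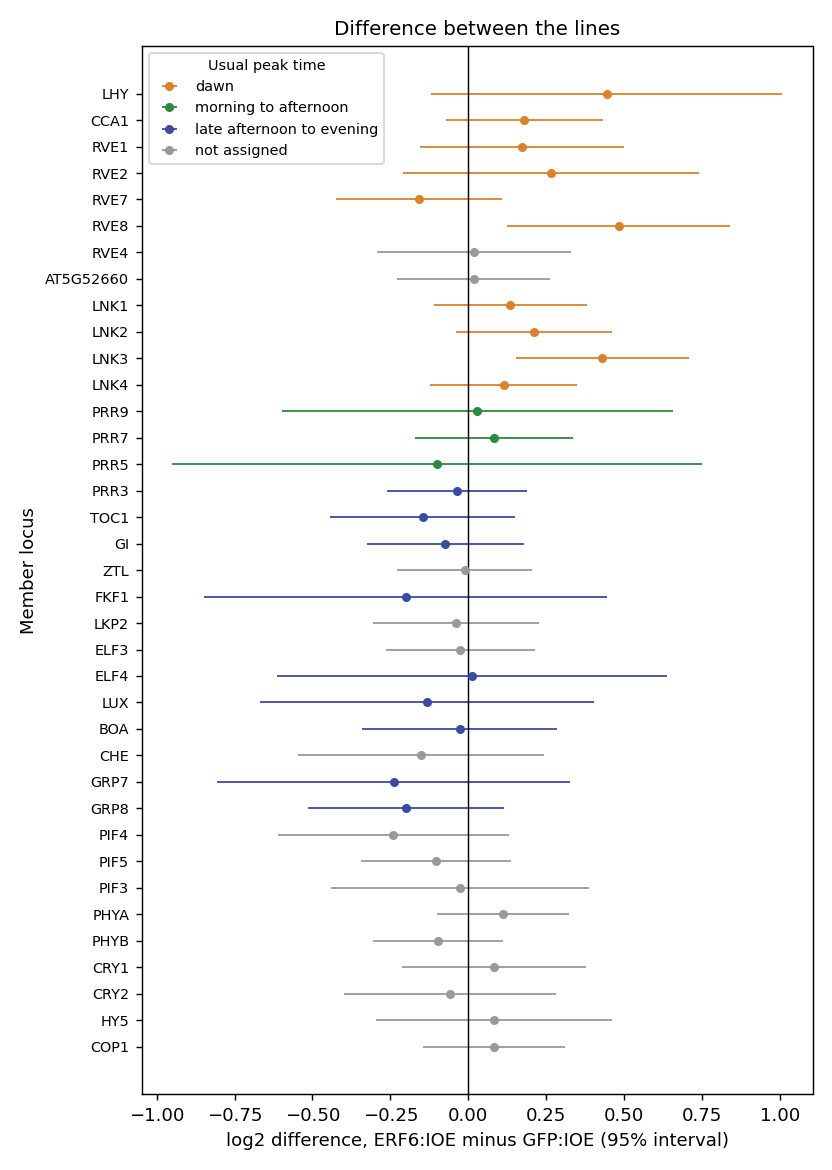
Log2 difference between the lines (ERF6:IOE minus GFP:IOE, horizontal axis) for the 37 members, with the 95% interval from limma over 3 arrays per line and colours for the time of day at which each gene is usually highest. Points run from -0.24 (PIF4) to 0.48 (RVE8). In this fit, without the repeat number as a block, the intervals of RVE8 and LNK3 alone lie to one side of 0.

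Among the MYB-like factors, RVE8 had the largest difference between the lines. RVE8 (AT3G09600) activates evening genes, and its level was 5.24, 5.59 and 5.18 in ERF6:IOE, against 4.94, 4.99 and 4.63 in GFP:IOE. All 3 ERF6:IOE arrays lay above all 3 GFP:IOE arrays, with a log2 difference of 0.48 (SE 0.15, 95% interval 0.13 to 0.84, limma adjusted p 0.393), which was 0.30, 0.60 and 0.55 in repeats 1, 2 and 3. RVE4 (AT5G02840), a close relative of RVE8, showed no such separation. Its level was 7.15, 7.33 and 7.59 in ERF6:IOE, against 7.39, 7.24 and 7.39 in GFP:IOE, a difference of 0.019 (SE 0.13).

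LHY (AT1G01060), one of the dawn repressors, was at 6.50, 6.09 and 5.94 in ERF6:IOE, against 6.14, 5.80 and 5.26 in GFP:IOE. ERF6:IOE was above GFP:IOE within each repeat, by 0.36, 0.29 and 0.68, but the lines overlapped, because GFP:IOE repeat 1 was higher than ERF6:IOE repeats 2 and 3. The difference was 0.44 (SE 0.24, 95% interval -0.12 to 1.01, limma adjusted p 0.741). CCA1 (AT2G46830), the partner and close relative of LHY, was at 6.72, 6.57 and 6.83 in ERF6:IOE, against 6.61, 6.51 and 6.47 in GFP:IOE, with a difference of 0.18 (SE 0.11) that was also above 0 within each repeat. The smaller value of CCA1 is not shown to differ from that of LHY, since the difference between the genes was not tested.

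RVE1 (AT5G17300), RVE2 (AT5G37260) and RVE7 (AT1G18330) are dawn-phased MYB-like genes outside the core loop. Their differences were 0.17 (RVE1, SE 0.14), 0.27 (RVE2, SE 0.20) and -0.16 (RVE7, SE 0.11), and the lines overlapped for each. RVE2 varied most among them, at 6.02, 5.77 and 5.56 in ERF6:IOE, against 5.89, 5.15 and 5.51 in GFP:IOE. RVE7 was lower in ERF6:IOE within each repeat, with differences between -0.21 and -0.13. The locus AT5G52660, which has no symbol in the name table used, kept to between 5.79 and 6.02 on all 6 arrays.

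The 4 LNK genes encode coactivators that work with RVE8. LNK3 (AT3G12320) was at 7.86, 8.04 and 8.19 in ERF6:IOE, against 7.59, 7.70 and 7.51 in GFP:IOE, so all ERF6:IOE arrays lay above all GFP:IOE arrays, and its difference was 0.43 (SE 0.12, 95% interval 0.15 to 0.71, limma adjusted p 0.297). LNK2 (AT3G54500) also separated the lines, at 7.55, 7.52 and 7.46 in ERF6:IOE, against 7.42, 7.33 and 7.14 in GFP:IOE, with a difference of 0.21 (SE 0.11, limma adjusted p 0.708). LNK1 (AT5G64170, 0.13, SE 0.10) and LNK4 (AT5G06980, 0.11, SE 0.10) had positive differences too, with overlapping lines. The difference of LNK3 was 0.27, 0.34 and 0.68 in repeats 1, 2 and 3.

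The pseudo-response regulators are repressors that act in turn through the day, and the lines overlapped for all 5 of them. PRR9 (AT2G46790), the earliest to be made, was at 5.96, 6.31 and 6.83 in ERF6:IOE, against 5.87, 6.53 and 6.61 in GFP:IOE, and its difference between the lines was 0.028 (SE 0.27). PRR5 (AT5G24470), made later in the day, was at 5.21, 5.18 and 6.23 in ERF6:IOE, against 5.09, 5.59 and 6.23 in GFP:IOE, with a difference of -0.099 and the widest SE of any member (0.36). For both genes the arrays of one line spanned a far wider range than the difference between the lines. PRR7 (AT5G02810) stayed between 5.87 and 6.16 and PRR3 (AT5G60100) between 4.44 and 4.60 over the 6 arrays. TOC1 (AT5G61380), the evening member of the family, was at 5.21, 5.15 and 5.44 in ERF6:IOE, against 5.24, 5.46 and 5.55 in GFP:IOE, lower in ERF6:IOE within each repeat, with a difference of -0.15 (SE 0.13, 95% interval -0.44 to 0.15).

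GI (AT1G22770), which binds and stabilises the F-box protein ZTL, was at 5.33, 5.30 and 5.45 in ERF6:IOE, against 5.30, 5.44 and 5.56 in GFP:IOE, with a difference of -0.073 (SE 0.11). ZTL (AT5G57360), which targets TOC1 and PRR5 for breakdown, was the steadiest of its family, between 5.95 and 6.09, and its interval for the difference was -0.23 to 0.20. FKF1 (AT1G68050), the relative of ZTL that acts with GI in day-length sensing, was at 3.98, 3.82 and 4.63 in ERF6:IOE, against 4.15, 4.03 and 4.86 in GFP:IOE. It was lower in ERF6:IOE within each repeat, with differences of -0.16, -0.21 and -0.23, while the lines overlapped and the difference was -0.20 (SE 0.28). FKF1 was the 1 member below an array's lower quartile, on 3 of 6 arrays, where values are compressed. LKP2 (AT2G18915), the third relative, had a difference of -0.039 (SE 0.11).

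In the evening complex, ELF3 (AT2G25930), its scaffold, kept to between 5.31 and 5.53. ELF4 (AT2G40080) was at 5.00, 5.10 and 5.43 in ERF6:IOE, against 4.71, 5.01 and 5.78 in GFP:IOE, and its difference changed sign between repeats, being 0.30, 0.088 and -0.35 in repeats 1, 2 and 3. LUX (AT3G46640), the DNA-binding member, was at 4.91, 5.36 and 5.15 in ERF6:IOE, against 4.91, 5.13 and 5.77 in GFP:IOE, where GFP:IOE repeat 3 was the highest array. The differences between the lines were 0.012 for ELF4 (SE 0.27) and -0.13 for LUX (SE 0.23). BOA (AT5G59570), a relative of LUX, had a difference of -0.027 (SE 0.13).

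The clock-linked factor CHE and the RNA-binding proteins GRP7 and GRP8, whose transcripts are classic clock outputs, were all lower in ERF6:IOE within each repeat. GRP7 (AT2G21660) was at 11.31, 11.41 and 12.04 in ERF6:IOE, against 11.64, 11.60 and 12.24 in GFP:IOE, with a difference of -0.24 (SE 0.24, limma adjusted p 0.893). GRP8 (AT4G39260) was at 10.68, 10.61 and 10.91 in ERF6:IOE, against 10.92, 10.76 and 11.13 in GFP:IOE, with a difference of -0.20 (SE 0.13), and its 4 rows gave -0.21, -0.20, -0.18 and -0.20. GRP7 and GRP8 are close paralogs, and signal shared between them cannot be told apart in these values. CHE (AT5G08330), a TCP factor that binds the CCA1 promoter, had a difference of -0.15 (SE 0.17). The lines overlapped for all 3 genes.

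Among light signalling genes, the growth-promoting factor PIF4 (AT2G43010) was at 6.45, 6.91 and 6.97 in ERF6:IOE, against 6.90, 6.98 and 7.16 in GFP:IOE. It was lower in ERF6:IOE within each repeat, with differences of -0.45, -0.077 and -0.19. The lines overlapped and the difference over all arrays was -0.24 (SE 0.16, limma adjusted p 0.808). PIF5 (AT3G59060, -0.10, SE 0.10) and PIF3 (AT1G09530, -0.027, SE 0.18), which act beside PIF4 downstream of phytochrome, had smaller values. The far-red receptor PHYA (AT1G09570) was at 5.68, 5.59 and 5.64 in ERF6:IOE, against 5.58, 5.48 and 5.52 in GFP:IOE, and the red receptor PHYB (AT2G18790) at 5.74, 5.68 and 5.70 in ERF6:IOE, against 5.83, 5.82 and 5.76 in GFP:IOE. For both the lines did not overlap, PHYA higher and PHYB lower in ERF6:IOE, with differences of 0.11 (SE 0.091, limma adjusted p 0.855) and -0.098 (SE 0.089, limma adjusted p 0.88).

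The blue-light receptors CRY1 (AT4G08920, 0.083, SE 0.13) and CRY2 (AT1G04400, -0.060, SE 0.15) had intervals of -0.21 to 0.38 and -0.40 to 0.28. COP1 (AT2G32950), the ubiquitin ligase that removes HY5 in darkness, had a difference of 0.082 (SE 0.098). HY5 (AT5G11260), the bZIP factor that promotes light responses, was at 6.42, 5.96 and 6.25 in ERF6:IOE, against 6.25, 6.26 and 5.87 in GFP:IOE, and its difference was above 0 in repeats 1 and 3 and -0.30 in repeat 2. None of these 4 genes separated the lines.

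The arrays were then compared by repeat number, with 1 array of each line per repeat and the line as a term in the fit. In the map of all members, the arrays of repeat 1 and those of repeat 3 often lay together for clock genes, whichever line they came from. Those of repeat 2 did so less. No row of the table passed this test after adjustment (limma moderated F-test, 0 of 37 members and 0% of rows), so the values that follow describe these 6 arrays. In simulated data this test called none of the genes whose change was as large as that of most members or somewhat larger, and a count of 0 does not show that the repeats were alike. At an unadjusted p under 0.05 there were 8 members, LHY, PRR9, PRR5, FKF1, ELF4, CHE, GRP7 and PIF3, or 21.6%, against 8.98% of all rows, dim ones included. The smallest adjusted p of a member was 0.418 (FKF1). In the fit that lets the variance follow the level, with a robust prior, 94 rows and 1 member passed, GRP7 (limma adjusted p 0.0137).

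**Figure D2:**
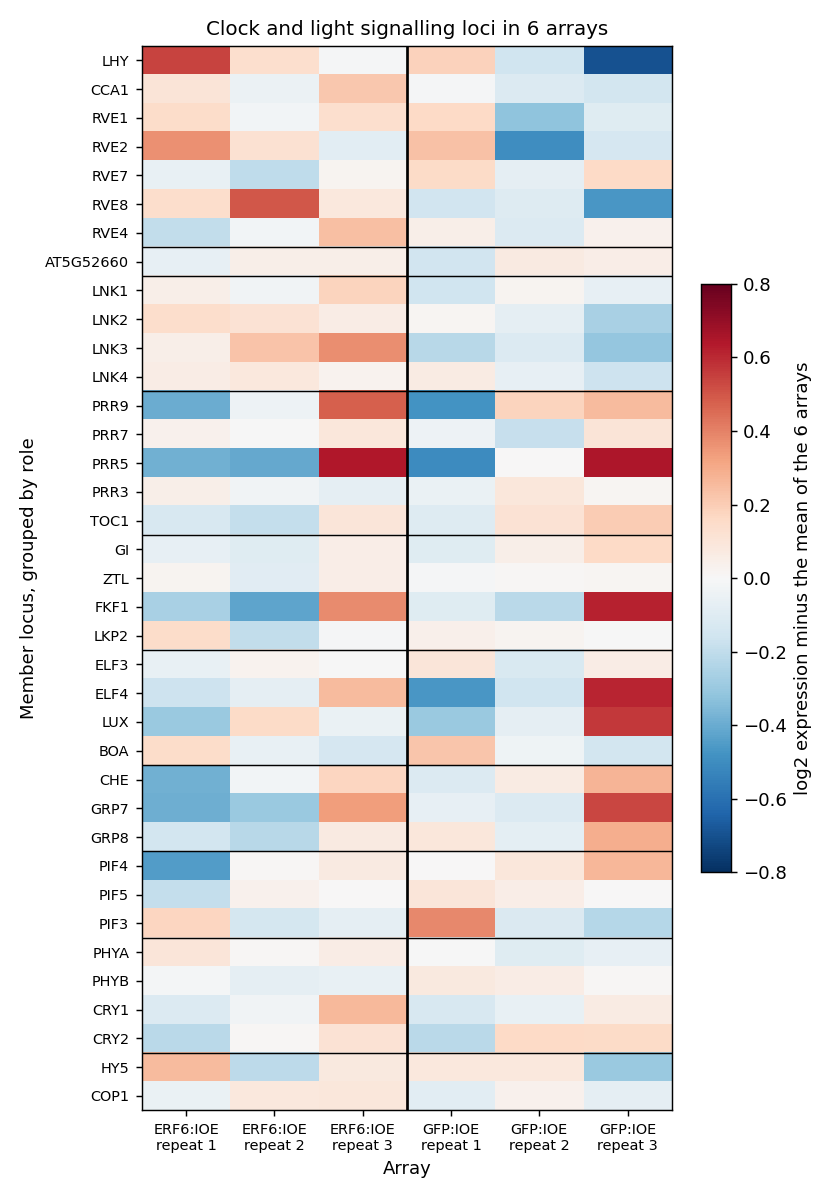
Log2 expression of the 37 members (rows, in the order of their roles) on the 6 arrays (columns), as the difference from the gene's mean over all arrays. ERF6:IOE repeat 3 and GFP:IOE repeat 3 are both high for PRR9, PRR5, FKF1, ELF4 and GRP7, and both repeat 1 arrays lie below the mean of each of these genes.

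Repeat 3 is set against repeat 1 in what follows, a choice made after the values were seen. These repeats had the highest and the lowest of the 3 repeat means for 20 of 37 members, against 36.9% of rows. PRR5 averaged 6.23 over the 2 arrays of repeat 3 and 5.15 over the 2 arrays of repeat 1, a difference of 1.09 (SE 0.16, 2.12-fold, F-test adjusted p in limma 0.441). This was the widest spread between repeats of any member, and it was 1.02 in ERF6:IOE and 1.15 in GFP:IOE. PRR9 averaged 6.72 in repeat 3 and 5.92 in repeat 1, a difference of 0.80 (SE 0.15), with repeat 2 at 6.42. Both PRR genes stood higher on each repeat 3 array than on either repeat 1 array, while their differences between the lines were -0.099 and 0.028.

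FKF1, GRP7, ELF4 and LUX, which are usually highest in the afternoon or evening, lay the same way. FKF1 was 0.67 higher in repeat 3 than in repeat 1 (SE 0.11), GRP7 0.66 (SE 0.11), ELF4 0.75 (SE 0.18) and LUX 0.55 (SE 0.22). For FKF1 and GRP7 the values were 0.64 and 0.73 in ERF6:IOE, against 0.71 and 0.60 in GFP:IOE. For ELF4 and LUX they were 0.42 and 0.24 in ERF6:IOE, against 1.07 and 0.86 in GFP:IOE. Whether the lines differ in this span could not be tested, since each line has 1 array per repeat. TOC1 (0.27, SE 0.13), GI (0.19, SE 0.12) and CHE (0.47, SE 0.12) were also higher on both arrays of repeat 3 than on both of repeat 1. BOA (-0.33, SE 0.11) and LKP2 (-0.10, SE 0.13) were lower on both, and GRP8 was 0.21 (SE 0.11).

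Dawn genes differed less evenly. LHY averaged 5.60 in repeat 3, 5.94 in repeat 2 and 6.32 in repeat 1, so repeat 3 minus repeat 1 was -0.72 (SE 0.14), with -0.55 in ERF6:IOE and -0.88 in GFP:IOE. RVE2 was at -0.41 (SE 0.17) and RVE1 at -0.13 (SE 0.13) in the same comparison. CCA1 did not follow LHY in this, at -0.013 (SE 0.13). RVE8 was -0.18 (SE 0.13), while LNK1, LNK2, LNK3 and LNK4 lay between -0.18 (LNK2) and 0.12 (LNK3).

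Light signalling genes with the widest spread between repeats were PIF3 and PIF4, in opposite directions. PIF3 was -0.43 (SE 0.14) and PIF4 0.39 (SE 0.14) in repeat 3 minus repeat 1. CRY2 was 0.35 (SE 0.11) and CRY1 0.28 (SE 0.12). HY5 was -0.28 (SE 0.19) and PIF5 0.050 (SE 0.13). The ranges over the repeat means of PHYB (0.057), PRR3 (0.065), ZTL (0.074), ELF3 (0.078) and PHYA (0.090) were the 5 smallest among the members, and that of COP1 was 0.13.

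Counted over all members, 31 of 37 (83.8%) had the same sign of repeat 3 minus repeat 1 in both lines, where 58% of all rows did. Both arrays of repeat 3 lay above both arrays of repeat 1 for 14 members, against 18.7% of rows, and below them for 8, against 21.3% of rows. Those above were PRR9, PRR7, PRR5, TOC1, GI, FKF1, ELF4, LUX, CHE, GRP7, PIF4, CRY1, CRY2 and AT5G52660. Those below were LHY, RVE1, RVE2, LNK4, LKP2, BOA, PIF3 and HY5. In either direction, repeats 3 and 1 separated for 22 members (59.5%), against 40.0% of rows. The other pairs lay nearer to the share of all rows. Repeats 2 and 1 separated for 17 members (45.9%, against 37.8% of rows), and repeats 3 and 2 for 15 (40.5%, against 33.6% of rows). Clock genes control one another, so the members are not independent of each other. The rows set beside them include dim ones, while FKF1 was the 1 member below an array's lower quartile. Deviations of same-numbered arrays correlated at r 0.44, 0.17 and 0.44 over rows above the median level, against 0.19, 0.078 and 0.21 over all rows. The shares of all rows are thus not matched for level, and the part of level in the higher shares of members was not tested.

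**Figure D3:**
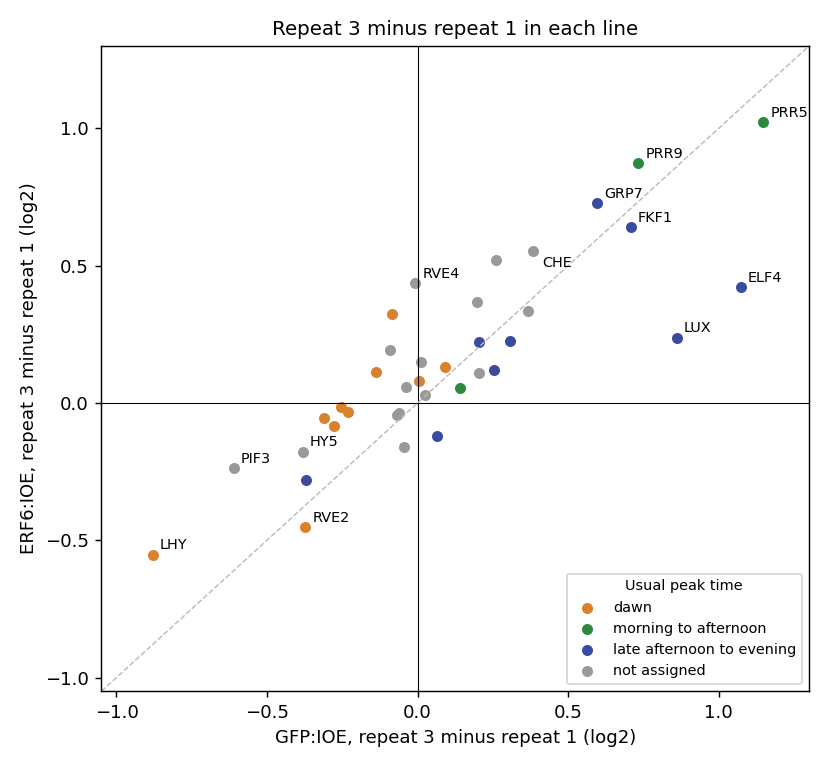
Repeat 3 minus repeat 1 (log2) in ERF6:IOE (vertical axis) and in GFP:IOE (horizontal axis), 1 point for each of the 37 members, coloured by usual peak time, with the dashed line marking equal values. PRR5 is the point farthest to the upper right, and LHY is the lowest point in both lines.

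Set side by side by the time of day at which each gene is usually highest, the groups read as follows. The 10 dawn genes were LHY, CCA1, RVE1, RVE2, RVE7, RVE8, LNK1, LNK2, LNK3 and LNK4. They had a median difference between the lines of 0.20, with 9 above 0. Their median for repeat 3 minus repeat 1 was -0.13, with 3 above 0. The 9 genes of late afternoon and evening were PRR3, TOC1, GI, FKF1, ELF4, LUX, BOA, GRP7 and GRP8. They had a median of -0.13 between the lines, with 1 above 0, and of 0.27 between repeats 3 and 1, with 7 above 0. The 3 genes of morning to afternoon (PRR9, PRR7 and PRR5) had medians of 0.028 and 0.80, and the 15 other members of -0.026 and 0.050. PRR7 lay far below that 0.80, with repeat 3 minus repeat 1 at 0.099 (SE 0.12). In the same comparison RVE7 (0.042, SE 0.11) and PRR3 (-0.027, SE 0.12) were among those opposite in sign to their group's median. The 15 others, given no peak time, include RVE4 (0.019 between the lines, 0.21 between repeats 3 and 1) and AT5G52660 (0.018 and 0.16). Over all rows the medians were -0.015 between the lines and -0.0060 between repeats 3 and 1. Of all rows 46.2% lay above 0 between the lines, and 14732 of 30237 did between repeats 3 and 1. Both sets of values come from the same 6 arrays, and no group was tested.

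The range over the 3 repeat means was wider than the difference between the lines for 29 of 37 members (78.4%), about the share of all rows (75.7%). The members where it was not were CCA1, RVE8, LNK1, LNK2, LNK3, PIF5, PHYA and PHYB. Among these, RVE8 and LNK3 had the largest differences between the lines, against a range between repeats of 0.38 for RVE8 and 0.15 for LNK3. The harvest time of each repeat was not known, and its part in any of these values was not tested.

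**Figure D4:**
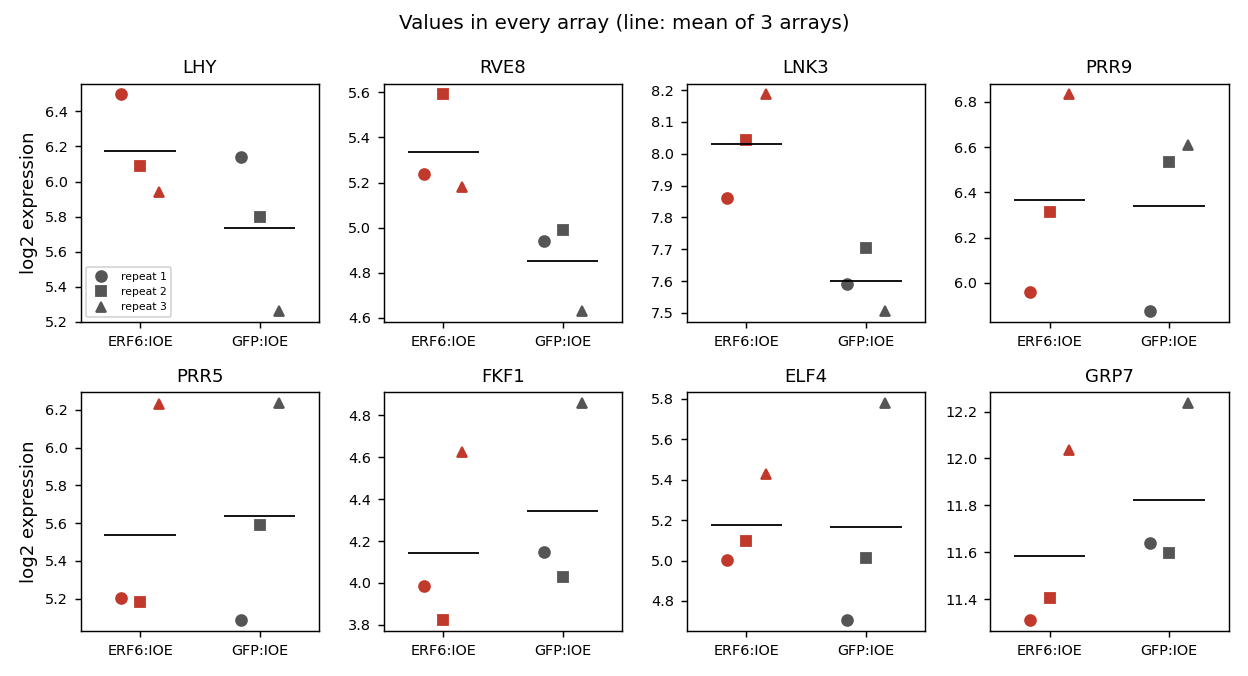
Log2 expression of 8 members on every array, ERF6:IOE left of GFP:IOE in each panel, with symbols for the repeat number and a line at the mean of 3 arrays. The lines separate for RVE8 and LNK3, whereas repeat 3 is the highest array of each line for PRR9, PRR5, FKF1, ELF4 and GRP7.

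Other genes of the same pathways were read from lists of 18 further clock genes, 10 photoperiod and CONSTANS-like genes, 33 further photoreceptor and light signalling genes, 11 shade and PIF target genes and 12 light-induced or daily cycling genes. Of these 84 measured genes 1 passed between the lines, higher in ERF6:IOE, and 0 passed between the repeats. It was XTH15, a cell wall enzyme gene of the shade response, at 7.63, 7.34 and 7.45 in ERF6:IOE, against 6.33, 6.45 and 6.54 in GFP:IOE. The difference between the lines was 1.03 (SE 0.12, limma adjusted p 0.0111). All ERF6:IOE arrays lay above all GFP:IOE arrays. In the blocked fit XTH15 missed the threshold, at a limma adjusted p of 0.0566, and 0 of the 84 genes passed. It missed it as well when one repeat number was dropped from each line, with limma adjusted p of 0.132, 0.163 and 0.14 for repeats 1, 2 and 3. The same held when single arrays were dropped, namely ERF6:IOE repeat 3 (limma adjusted p 0.0558), GFP:IOE repeat 1 (0.0551) or GFP:IOE repeat 2 (0.0629), while the difference stayed between 0.90 and 1.10. The auxin response genes IAA29 (0.59, SE 0.11, limma adjusted p 0.0811) and IAA19 (0.60, SE 0.12, limma adjusted p 0.099) of the same list did not pass. The list's median was -0.0048, with 5 of its 11 genes above 0 and 6 below, the lowest at -0.60.

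In the light signalling list (median 0.018) the gene with the largest moderated t was RUP1, a brake on the UV-B receptor, at 5.49, 5.87 and 5.61 in ERF6:IOE, against 5.11, 5.03 and 5.05 in GFP:IOE. Its difference was 0.59 (SE 0.12, limma adjusted p 0.12), with CRY3 at 0.37 (SE 0.12) and PIF7 at 0.37 (SE 0.12). COL1, a CONSTANS-like gene, was at 7.03, 6.89 and 7.01 in ERF6:IOE, against 6.54, 6.68 and 6.41 in GFP:IOE, a difference of 0.44 (SE 0.11, limma adjusted p 0.228). COL5 (0.34, SE 0.13) and COL2 (0.25, SE 0.12) were next by moderated t in that list (median 0.098), where 6 genes lay above 0 and 4 below, the lowest at -0.34. Among further clock genes (median 0.025), ELF4-L3 was at 0.38 (SE 0.13), ASG4 at 0.33 (SE 0.16) and SKIP at -0.14 (SE 0.11). Among daily cycling outputs (median -0.049), GBSS1, a starch synthase gene, was at 0.56 (SE 0.18), BAM3 at 0.38 (SE 0.33) and PHS2 at -0.23 (SE 0.17), and none of these passed.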

How the data were processed

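The authors deposited a single table with log2 values of 6 AGRONOMICS1 tiling arrays. RMA, limma and build TAIR9 are named by the submitters' processing notes, with no version or setting. RMA quantile-normalises arrays and compresses low values, so detection and signal over background were not assessed, and precision is limited by the number of arrays.

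Lines were compared with limma 3.58.1 in R 4.3.3 (lmFit, eBayes, two-sided, no level filter, Benjamini-Hochberg over 30237 rows, threshold 0.05), ERF6:IOE minus GFP:IOE. Repeats were compared in a fit with line and repeat terms by a moderated F-test. Both procedures were tested on simulated data. At 4-fold changes the test between the lines called 96.15% of the changed genes and the test between the repeats 89%. At 2-fold changes they called 65.55% and 0%, and at 1.5-fold changes each called 0%. Symbols come from a table of assembly TAIR10.1, which held 36 of the 37 member symbols. Builds differ, so no coordinates are given. No table of sequences was used here. Peak times are textbook background. All members are named, ordered by role. Of other listed genes, those past the threshold and otherwise the 3 with the largest moderated t of each list are named. 3 listed genes had no row (CAB1, CAB2 and CAB3). Members and lists were chosen with earlier results of these data known. Alternatives were the repeat number as a block, level filters, renewed normalization, a variance trend, array weights and leaving out repeats or arrays.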

Additional observations from a re-analysis of the deposited data

How the results depend on the processing

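Over 16 alternatives no member passed between the lines (smallest limma adjusted p 0.137). Over the 15 run between the repeats, whose fit already holds the repeat number, GRP7 alone passed, with a variance trend and robust prior (1 member, 94 rows). Rows passing between the repeats were 10 with the dimmest 30% of rows left out, 50 with the dimmer 50% left out and 0 in the other alternatives run. In the main fit between the lines 211 rows were higher and 8 lower in ERF6:IOE. With these filters 277 and 268 rows were higher and 14 and 22 lower. The cause was not tested beyond the smaller number of rows. With an array or a repeat left out, 45 to 126 rows were higher and 1 to 6 lower between the lines, with fewer samples, and 0 members passed either test.

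With the repeat number as a replicate block, 143 rows were higher and 5 lower, and 0 members passed. Deviations of same-numbered arrays correlated across all rows with r of 0.19, 0.078 and 0.21, across the 15118 rows above the median level with 0.44, 0.17 and 0.44, and across the 37 members with 0.81, 0.27 and 0.77. The samples were treated as sharing only a number, since no label ties them and not every pair passed 0.1 over all rows, although every pair did over the brighter rows and the members. Over all rows and over the members each array correlated best with its own number, a hint from the data and not from the design.

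Of 589 member differences between the lines under alternatives, 45 changed sign, in 16 members whose main difference was at most 0.20 in size. With quantile normalization again RVE4 was -0.012 and ELF4 -0.00802, and with array weights ELF4 was -0.023. Ranges with a repeat or an array left out were -0.053 to 0.059 (AT5G52660), -0.11 to 0.078 (BOA), -0.026 to 0.16 (CRY1), -0.18 to 0.034 (CRY2), -0.11 to 0.042 (ELF3), -0.22 to 0.32 (ELF4), -0.44 to 0.055 (FKF1), -0.063 to 0.27 (HY5), -0.12 to 0.049 (LKP2), -0.31 to 0.12 (LUX), -0.15 to 0.16 (PIF3), -0.10 to 0.0056 (PRR3), -0.44 to 0.20 (PRR5), -0.20 to 0.23 (PRR9), -0.098 to 0.15 (RVE4) and -0.040 to 0.033 (ZTL). With alternatives added after seeing the data, ERF6 passed in 16 of 16 and XTH15 in 9 of 16, and was lost with the block (limma adjusted p 0.0566). IAA29 passed in 1 of 15 (0.0397, dimmest 30% left out) and RUP1 in 1 of 16 (0.0426, dimmer 50% left out). RVE8 ranged from 0.36 to 0.58 and LNK3 from 0.30 to 0.51.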

Other observations

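The genes described here were picked with their values in view, and none passed between the repeats. The light-induced chloroplast protein genes ELIP1 and ELIP2 spread more widely between repeats than any clock gene. ELIP1 was at 9.06, 8.14 and 7.13 in ERF6:IOE, against 9.02, 8.06 and 6.54 in GFP:IOE, and repeat 3 minus repeat 1 was -2.21 on the log2 scale (SE 0.17, F-test adjusted p in limma 0.329). ELIP2 was at 9.17, 8.49 and 7.01 in ERF6:IOE, against 9.13, 8.68 and 6.66 in GFP:IOE, with -2.32 (SE 0.16, F-test adjusted p in limma 0.185). HYH, the relative of HY5, was at 8.04, 7.49 and 7.22 in ERF6:IOE, against 8.03, 7.47 and 6.96 in GFP:IOE, with -0.94 (SE 0.13). In all 3 genes both repeat 1 arrays were the highest and both repeat 3 arrays the lowest, while the differences between the lines were 0.24, 0.065 and 0.093.

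BAM3, a starch-degrading enzyme gene, lay the other way, at 6.48, 6.36 and 7.17 in ERF6:IOE, against 5.86, 6.01 and 7.00 in GFP:IOE, with repeat 3 minus repeat 1 at 0.91 (SE 0.15). CAT3, a catalase gene of the evening, was at 10.98, 11.52 and 11.47 in ERF6:IOE, against 11.04, 11.76 and 11.60 in GFP:IOE, where both repeat 1 arrays were the lowest (0.53, SE 0.12).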
